A study of Danio rerio with 3 samples.

Results

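The endoderm specification factors considered here are 5 genes of the zebrafish embryo, chosen by symbol: sox32, sox17, mixl1, sebox and hnf1ba. All 5 were found among the 35117 genes of the deposited table. Their levels were compared between untreated, whole wild-type embryos at 10 hours post fertilization (hpf), when gastrulation ends, and embryos of the same kind at 6 hpf, when it begins. Total RNA was sequenced from 2 libraries at 10 hpf and 1 library at 6 hpf. Each gene had a single RPKM value per stage (a read number divided by gene length and by the library's total), and by its header the 10 hpf value covers both libraries of that stage. There is therefore no spread between libraries beside any level, and no replicate check of the difference between stages could be made here. At 6 hpf there was no replicate at all. How many embryos were pooled is not given in the labels.

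Endoderm, the layer that forms gut, liver and pancreas, is set aside in the zebrafish at the margin of the blastula in cells that receive Nodal, a secreted signal of the TGF-beta family. Nodal signalling turns on genes for the Mix-type homeobox proteins mixl1 (also known as bonnie and clyde) and sebox (mezzo) and for Gata factors. These promote transcription of sox32 (casanova), a SoxF protein required for endoderm, and sox32 in turn is needed for expression of its relative sox17. The POU-homeobox factor hnf1ba acts later, in regional patterning of the gut, the hindbrain and the kidney.

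Of the 5 factors, sox32, mixl1 and sebox were lower at 10 hpf than at 6 hpf, and sox17 and hnf1ba were not called. Calls were taken from the authors' deposited table: a gene counts as called if its empirical false discovery rate was under 0.05, and as higher or lower at 10 hpf by the sign of its deposited log2 fold. By this criterion 3 of the 5 genes were called lower and 0 were called higher, and the RPKM of both genes that were not called was higher at 10 hpf. As background, 19.8% of all genes in the authors' deposited table were called lower and 9.7% were called higher. Among the 17494 genes that reached 1 RPKM at either stage, as all 5 factors did, 32.9% were called lower and 16.3% higher. With 5 genes, a share is not read further. The calls were not symmetric on the RPKM scale. At 5 RPKM or more, the smallest RPKM difference was 1.12-fold among genes called lower and 2.62-fold among genes called higher. Counts of lower against higher calls, here and in the lists below, carry this asymmetry.

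**Figure D1:**
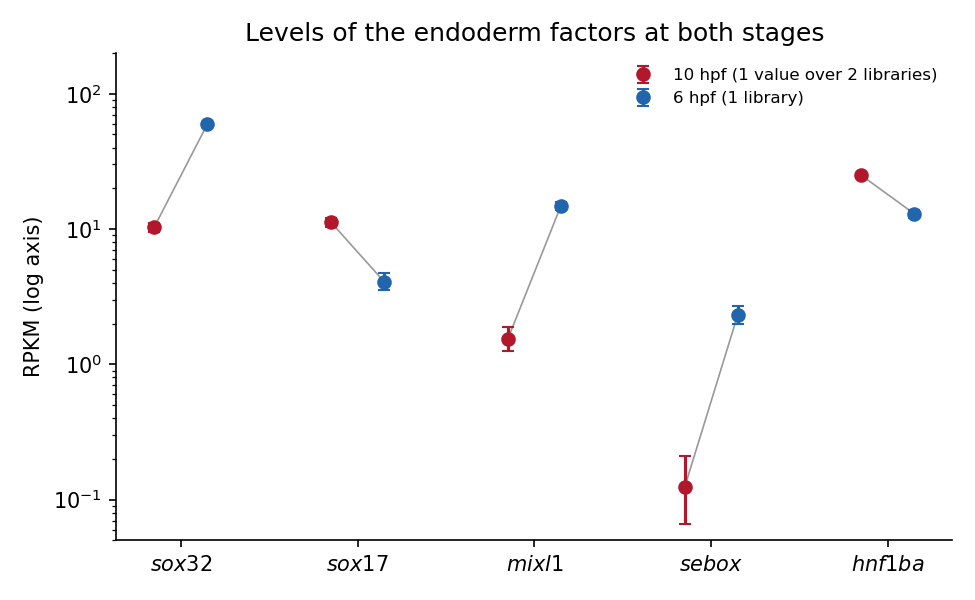
RPKM of each endoderm factor on a log axis, with 10 hpf (red) left of 6 hpf (blue). Bars are 95% counting intervals and do not include variation between libraries. The values of sox32, mixl1 and sebox are lower at 10 hpf, and those of sox17 and hnf1ba are higher there.

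Sequencing depth could be read from the values, since RPKM values are whole reads divided by a length and a total. Low values of 5S rRNA genes gave totals of 23243191 reads at 10 hpf and 16991528 reads at 6 hpf. With these totals, the RPKM pair of each factor was matched to the smallest whole read numbers and gene length that give both values to all 6 digits. If the true numbers are multiples of these, the intervals below are too wide. The matches for sox32 were 722 reads at 10 hpf and 3035 reads at 6 hpf, and those for sox17 were 717 reads at 10 hpf and 191 reads at 6 hpf. For mixl1 they were 97 reads at 10 hpf and 682 reads at 6 hpf, and for hnf1ba 2414 reads at 10 hpf and 915 reads at 6 hpf. For sebox, 13 reads at 10 hpf stood against 178 reads at 6 hpf. The 13 reads of sebox at 10 hpf are the smallest of these numbers, and its level at that stage is the least precise. Intervals cover counting error only.

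Among the Mix-type homeobox genes, mixl1 (ENSDARG00000069252) had 1.54 RPKM at 10 hpf (95% counting interval 1.25 to 1.88), against 14.8 RPKM at 6 hpf (13.7 to 16.0). The level was 9.62-fold lower at 10 hpf (interval 7.77 to 12.0). Its deposited log2 fold was −3.85 and its conservative log2 fold, a bound drawn towards 0, was −2.97 in the authors' deposited table. Only 5.69% of genes at 1 RPKM or more had a lower RPKM ratio than mixl1.

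The other Mix-type gene of the set, sebox (ENSDARG00000042526), was the least abundant of the 5 at both stages. It had 0.124 RPKM at 10 hpf (0.0658 to 0.211), against 2.31 RPKM at 6 hpf (1.99 to 2.68). The level was 18.7-fold lower at 10 hpf (interval 10.7 to 35.9), on the RPKM scale without a pseudocount. With a pseudocount of 1 RPKM the log2 ratio of sebox was −1.56, smaller in size than the −2.64 of mixl1, so the order of the pair by size of difference depends on the scale. In level, mixl1 had 12.5 times the RPKM of sebox at 10 hpf and 6.40 times at 6 hpf, and whether their folds differ was not tested. In the authors' deposited table the log2 fold of sebox was −4.43 and its conservative value −3.22.

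The set's SoxF genes differed in opposite directions, with a call for sox32 and none for sox17. For sox32 (ENSDARG00000100591), which specifies endoderm, the level was 10.3 RPKM at 10 hpf (9.58 to 11.1), against 59.4 RPKM at 6 hpf (57.3 to 61.5), a 5.75-fold lower level at 10 hpf (5.30 to 6.24). For sox17 (ENSDARG00000101717), which is expressed in endoderm under control of sox32, it was 11.2 RPKM at 10 hpf (10.4 to 12.1), against 4.09 RPKM at 6 hpf (3.53 to 4.71). That is 2.74 times the 6 hpf level on the RPKM scale (2.34 to 3.24). The RPKM of sox32 was 0.921 times that of sox17 at 10 hpf and 14.5 times at 6 hpf, so the genes had similar levels per length at the later stage and very unequal ones at the earlier stage. In RefSeq's annotation of assembly GRCz12tu the genes are near neighbours on the same chromosome, with 1 uncharacterized locus between them.

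On the scale of the deposited fold, sox17 lay at the edge of the called genes. Its log2 fold was 0.83, with an empirical false discovery rate of 1, in the authors' deposited table. The smallest log2 fold among genes called higher there, at 5 RPKM or more, was 0.83 as well. Of 137 other genes whose RPKM lay within 0.25 (log2) of that of sox17 at both stages, 27 were called higher and 110 were not called. The 95% counting interval of the sox17 ratio lies above 1, but that interval holds no variation between embryos or libraries.

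For hnf1ba (ENSDARG00000006615) the level was 24.9 RPKM at 10 hpf (23.9 to 25.9), against 12.9 RPKM at 6 hpf (12.1 to 13.8), a ratio of 1.93 (1.79 to 2.08). Its deposited log2 fold was 0.33 and it was not called in the authors' deposited table. None (0) of the 152 other genes with RPKM within 0.25 (log2) of hnf1ba at both stages was called either. That count adds little, since the smallest ratio called higher at 5 RPKM or more was 2.62. Hardly any gene so close to hnf1ba could have reached it. A gene that was not called is not shown to be unchanged.

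By level, the order at 10 hpf was hnf1ba, sox17, sox32, mixl1 and sebox. Of these neighbours, only sox17 and sox32 had overlapping counting intervals. At 6 hpf the order was sox32, mixl1, hnf1ba, sox17 and sebox, and there the intervals of mixl1 (13.7 to 16.0 RPKM) and hnf1ba (12.1 to 13.8 RPKM) met at their ends. The summed level of the 5 genes was 48.1 RPKM at 10 hpf and 93.5 RPKM at 6 hpf. Of this sum, hnf1ba made up 51.8% at 10 hpf and 13.8% at 6 hpf, and sox32 made up 21.5% at 10 hpf and 63.5% at 6 hpf.

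**Figure D2:**
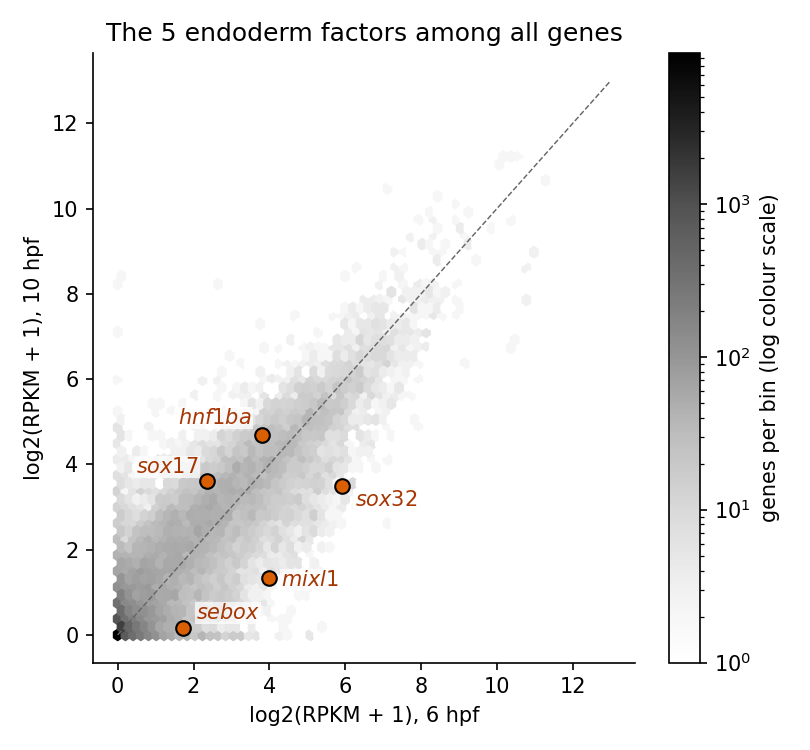
All genes by log2(RPKM + 1) at 6 hpf (horizontal) and 10 hpf (vertical), shaded by the number of genes per bin on a log colour scale, with equal levels on the dashed line. The points of sox32, mixl1 and sebox lie below the line and those of sox17 and hnf1ba above it.

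The deposited fold was scaled differently from the RPKM values. Across 7009 genes above 5 RPKM at both stages the authors' deposited table gave a log2 fold 0.60 below the log2 RPKM ratio in the median (SD 0.042), and the median log2 RPKM ratio of genes at 5 RPKM or more was 0.10. None (0) of the 5 factors changed sign between these scales. Both other scales lie below the RPKM ratio, so only sox17 and hnf1ba, with positive ratios, could have changed sign. The log2 RPKM ratio was −2.52 for sox32 and −2.62 when the median gene was subtracted, against −3.11 for the fold in the authors' deposited table. The same quantities for sox17 were 1.46, 1.36 and 0.83, and for hnf1ba they were 0.95, 0.85 and 0.33. The deposited fold lay below the RPKM ratio by 0.58 for sox32, 0.63 for sox17, 0.58 for mixl1 and 0.62 for hnf1ba, but by only 0.20 for sebox. By arithmetic, an offset like that of sox32, sox17 and hnf1ba is the largest part of the smallest of their ratios, that of hnf1ba.

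**Figure D3:**
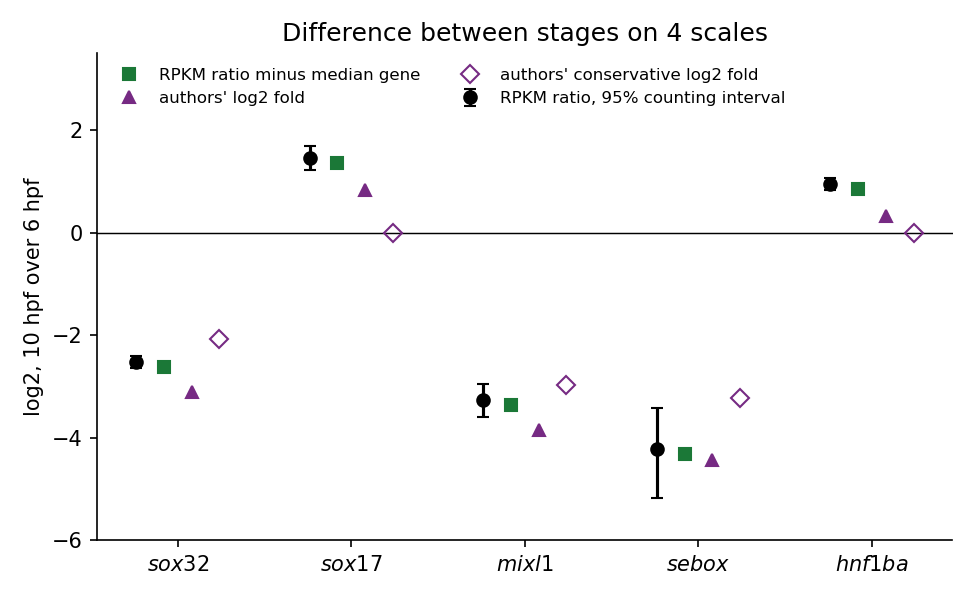
Log2 difference of 10 hpf over 6 hpf for each factor as the RPKM ratio with its 95% counting interval (circles), the RPKM ratio minus the median gene (squares), the authors' log2 fold (triangles) and their conservative log2 fold (open diamonds). For sox17 and hnf1ba the conservative fold is 0.

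Each factor was set beside its relatives. SoxF proteins bind DNA through an HMG box, and the other SoxF genes, sox7 and sox18, are known for roles in blood vessels. The gene sox18 had 2.25 RPKM at 10 hpf and was listed at 0 at 6 hpf, and it was called higher in the authors' deposited table. It lies below the level set for naming and was named after its value was seen. Values for sox7, which was not called, were 0.888 RPKM at 10 hpf and 0.573 RPKM at 6 hpf. The summed SoxF level was 24.7 RPKM at 10 hpf and 64.0 RPKM at 6 hpf, of which sox32 held 41.8% at 10 hpf and 92.7% at 6 hpf, and sox17 held 45.4% at 10 hpf and 6.38% at 6 hpf.

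The Mix-type genes mxtx1 and mxtx2 are expressed in the yolk syncytial layer, the nucleated layer at the surface of the yolk cell, where mxtx2 is required for its formation. Both were called lower in the authors' deposited table, so all 4 Mix-type genes were. Among all genes at 1 RPKM or more, a level each of the 4 reached, 32.9% were called lower. The level of mxtx1 was 8.71 RPKM at 10 hpf, against 18.6 RPKM at 6 hpf, which is 2.14-fold lower at 10 hpf. For mxtx2, named as the other of the pair after its value was seen, it was 0.162 RPKM at 10 hpf, against 1.02 RPKM at 6 hpf. The 4 genes summed to 10.5 RPKM at 10 hpf and 36.7 RPKM at 6 hpf, and mixl1 held 14.6% of this at 10 hpf and 40.3% at 6 hpf.

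The duplicate of hnf1ba, hnf1bb, was not called in the authors' deposited table at 0.180 RPKM at 10 hpf and 0.203 RPKM at 6 hpf. Of the pair's summed level, hnf1ba gave 99.3% at 10 hpf and 98.5% at 6 hpf.

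**Figure D4:**
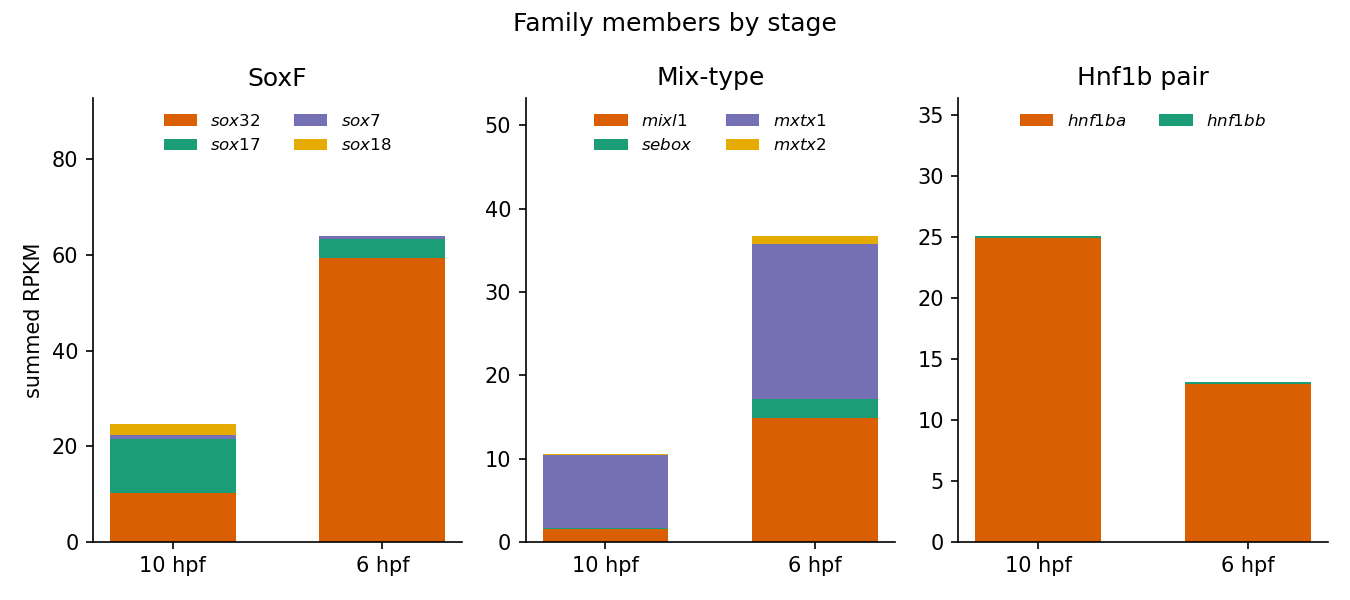
Summed RPKM of SoxF genes, Mix-type genes and the pair hnf1ba and hnf1bb at 10 hpf (left bar) and 6 hpf (right bar), each bar divided by gene from the bottom up in the order of the legend. The SoxF and Mix-type sums are lower at 10 hpf and the sum of the pair is higher, and the vertical axes differ between panels.

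The genes around these factors in endoderm formation were described through 9 lists that leave out the 5 factors and hold 61 measured genes. By the calls in the authors' deposited table, 6 of these were higher and 24 lower, and 31 were not called. Their median log2 RPKM ratio over the 52 genes at 1 RPKM or more was −0.28, against 0.18 over all genes at that level, with genes listed at 0 at either stage placed at the end of the order. Over all list genes with a pseudocount of 1 RPKM the median was −0.025. As background for the counts of each list and marker set, 9.7% of all genes were called higher and 19.8% lower. At 1 RPKM or more these shares were 16.3% and 32.9%.

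Upstream of mixl1 and sox32, 8 of 11 Nodal signalling genes were called lower and none (0) higher in the authors' deposited table, with a median log2 RPKM ratio of −0.68. Of all genes at 1 RPKM or more, 32.9% were called lower. When the conservative folds were centred, 5 lower calls were left in the list, and the lower calls among all genes in the authors' deposited table numbered 4718, against 6946 before centring. The type II receptor acvr2ba, matched through an older symbol, was 2.74-fold lower at 10 hpf, the co-receptor tdgf1 4.93-fold lower and the type I receptor acvr1ba 2.43-fold lower. The Nodal antagonist lefty2 was not called at 13.6 RPKM at 10 hpf and 12.0 RPKM at 6 hpf. Its relative lefty1 was called lower, at 16.1 RPKM at 10 hpf and 25.7 RPKM at 6 hpf. The ligands of the list were each under 10 RPKM at both stages. Called lower were ndr1 (squint), listed at 0 at 10 hpf and at 1.22 RPKM at 6 hpf, and gdf3, which acts together with Nodal, at 4.13 RPKM at 10 hpf and 8.52 RPKM at 6 hpf. The ligand ndr2 (cyclops) was not called at 4.43 RPKM at 10 hpf and 3.89 RPKM at 6 hpf. The ligands and lefty1 were named after their values were seen.

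Among 9 effectors and maternal cofactors of endoderm induction, 5 were called lower, 1 was called higher and 3 were not called in the authors' deposited table. Their median log2 RPKM ratio was −0.85, against −1.61 over those at 5 RPKM or more and −0.56 over all of them with a pseudocount of 1 RPKM. The POU factor pou5f3, which acts with sox32 on sox17, was 17.1-fold lower at 10 hpf, the Nodal effector foxh1 4.59-fold lower and the T-box factor tbx16 3.59-fold lower. For smad4a, a Smad shared with the BMP pathway that was not called, the ratio was 1.30. The gene called higher was smad3b, at 2.68 RPKM at 10 hpf and listed at 0 at 6 hpf, and it was named after its value was seen.

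Gata factors, which act beside mixl1 upstream of sox32, had 1 of 3 genes called lower in the authors' deposited table, and a median log2 RPKM ratio of 0.78. The gene called was gata6, at 43.4 RPKM at 10 hpf, against 70.0 RPKM at 6 hpf, a 1.61-fold lower level that was no longer called after centring. For gata5, not called, the values were 60.4 RPKM at 10 hpf and 35.2 RPKM at 6 hpf. The third gene, gata4, was not called either, at 10.4 RPKM at 10 hpf and 3.35 RPKM at 6 hpf. It was named after its value was seen.

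Further markers of endoderm and of cells near it had 1 of 11 genes called higher, 2 lower and 8 not called in the authors' deposited table. Their median log2 RPKM ratio was 0.65 (0.31 over those at 5 RPKM or more). Whether these genes lie downstream of the 5 factors was not tested. The chemokine receptor cxcr4b was 7.24-fold lower at 10 hpf, and the forkhead factor foxa3 was 2.18-fold lower. Their paralogs did not share this. Values of cxcr4a were 64.0 RPKM at 10 hpf and 65.2 RPKM at 6 hpf. Those of foxa2 were 30.6 RPKM at 10 hpf and 12.7 RPKM at 6 hpf. Neither paralog was called, and both were named after their values were seen. The retinoic acid-degrading enzyme cyp26a1 was not called at 113 RPKM at 10 hpf and 51.0 RPKM at 6 hpf. The gene called higher was the forkhead factor foxa1, at 2.55 RPKM at 10 hpf and listed at 0 at 6 hpf, and it was named after its value was seen.

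Factors of the later gut, liver and pancreas had 3 of 10 genes called higher, 3 lower and 4 not called in the authors' deposited table. Their median log2 RPKM ratio was −0.60 over genes at 1 RPKM or more and −0.94 over those at 5 RPKM or more, but 0.18 over all of them with a pseudocount of 1 RPKM, so no direction is given. The nuclear receptor hnf4a was 3.26-fold lower at 10 hpf and onecut1 was 1.92-fold lower, with gata6 as given above, while pdx1, a pancreas factor, was not called at 1.04 RPKM at 10 hpf and 1.58 RPKM at 6 hpf. The genes called higher were foxa1, mnx1 (3.72 RPKM at 10 hpf and listed at 0 at 6 hpf) and sox9b (4.04 RPKM at 10 hpf, against 0.168 RPKM at 6 hpf), of which the last 2 were also named after their values were seen.

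**Figure D5:**
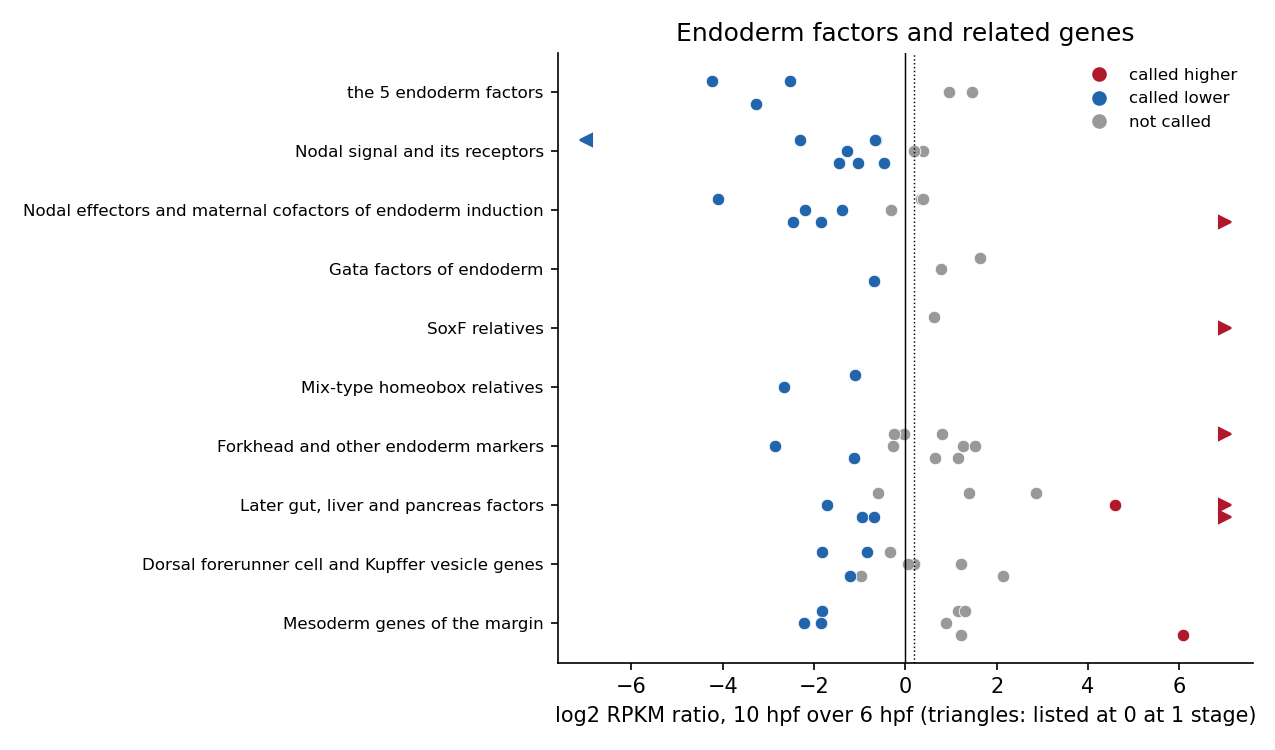
Log2 RPKM ratio of 10 hpf over 6 hpf for the 5 endoderm factors (top row) and each gene of the related lists, coloured by the call in the authors' deposited table. Triangles at the edges are genes listed at 0 at 6 hpf (right) or 10 hpf (left), and the dotted line is the median of all genes at 1 RPKM or more (0.18). A list gene at 0 at both stages (cdx1b) is not drawn.

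In whole embryos, fewer cells of a type and less RNA per cell cannot be told apart. Several of these factors are also expressed outside endoderm: sox32 and sox17 in dorsal forerunner cells, which form Kupffer's vesicle, and sox32 and mixl1 in the yolk syncytial layer. Among 5 yolk syncytial markers, the authors' deposited table had 2 called higher and 3 called lower, and none was listed at 0. Their summed level was 220 RPKM at 10 hpf and 80.9 RPKM at 6 hpf, but their median log2 RPKM ratio was −0.85. Most of the 10 hpf sum came from the 2 genes called higher, apoa2 (90.3 RPKM) and apobb.1 (95.7 RPKM). At 6 hpf these had 0.808 RPKM and 1.96 RPKM. The 3 called lower were mxtx2, hnf4a and slc26a1, so the sum does not give a direction for this layer. Of the dorsal forerunner cell markers foxj1a and dand5, 0 of 2 were called, and their summed level was 2.08 RPKM at 10 hpf and 2.09 RPKM at 6 hpf. The level of foxj1a was 1.44 RPKM at 10 hpf and 1.82 RPKM at 6 hpf, and that of dand5 0.632 RPKM and 0.273 RPKM. With values in opposite directions, this sum gives no direction either. The part of these cells in the values of sox32, sox17 and mixl1 was not tested. For hnf1ba, which as given above also acts in the hindbrain and the kidney, the part of endoderm in its values was not tested either.

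A wider list of 9 genes of dorsal forerunner cells and Kupffer's vesicle had 3 genes called lower, 0 higher and 6 not called in the authors' deposited table. Their median log2 RPKM ratio was −0.84 over genes at 1 RPKM or more, against −1.22 at 5 RPKM or more and −0.15 over all of them with a pseudocount of 1 RPKM. Of the 9 genes, 5 reached 1 RPKM at either stage, and all 3 lower calls were among these. As background, 32.9% of all genes at that level were called lower, and 19.8% of all genes without a minimum level. With so few genes, the share is not read further. The Brachyury gene tbxta was 3.55-fold lower at 10 hpf and the zinc finger repressor snai1a 2.33-fold lower, and noto was not called at 43.0 RPKM at 10 hpf and 41.2 RPKM at 6 hpf. All 3 are expressed in other tissue as well. Mesoderm arises beside endoderm, and of 8 mesoderm genes of the margin 1 was called higher, 3 lower and 4 not (median log2 RPKM ratio 1.02). Here tbx6 had 67.7 times its 6 hpf level at 10 hpf, eve1 was 4.68-fold lower, and msgn1, not called, had 2.21 times its 6 hpf level.

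Over these stages, the genes with values most like each factor were found by Euclidean distance on log2(RPKM + 1) at 10 and 6 hpf among 22472 genes with a name. With only 2 values per gene, closeness is a description of level. The 3 genes nearest to sox32 were zinc finger genes: znf1097 (10.1 RPKM at 10 hpf and 57.9 RPKM at 6 hpf, distance 0.044), znf1048 (0.047) and znf1064 (0.065). Nearest to sox17 were txndc15 (11.3 RPKM at 10 hpf and 4.18 RPKM at 6 hpf, distance 0.027), plxna3 (0.028) and irx3b (0.031).

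The factor mixl1 had fewer close neighbours. Both genes annotated as cfap100 (distances 0.15 for ENSDARG00000038538 and 0.21 for ENSDARG00000090342) and the small nucleolar RNA SNORD75 (0.17) were nearest to it. Nearest to sebox were SCARNA6 (0.038), pcdh20 (0.045) and agmat (0.049). Nearest to hnf1ba were SNORD52 (0.027), helz (0.030) and napab (0.031).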

How the data were processed

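RNA from whole zebrafish embryos was sequenced in 2 libraries at 10 hpf and 1 library at 6 hpf. Per the submitters' processing notes, TopHat2 2.1.1 and build GRCz10 were used. For the read counter, its strand setting, the gene models and any filter, the sources used here give nothing. Per the file headers, the authors deposited 1 RPKM value per gene and stage. Per the file headers, the same deposited table holds the log2 fold of 10 hpf over 6 hpf, GFOLD's conservative log2 fold (parameter 0.01) and an empirical false discovery rate, read here like a q-value. No library had values of its own, so the model foreseen for values per library was not used and no test was made here.

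Computed here, with Python 3.11.15, numpy 2.4.6, pandas 2.3.3 and scipy 1.17.1, were RPKM ratios without a pseudocount, list counts and medians, and read numbers. Totals were those at which 5S rRNA values gave whole lengths. With a tolerance of 0.01 bases, 100% of 58 values at 10 hpf and of 40 values at 6 hpf did. The totals were chosen on these same values, so this share is no check of them. The ratio of the totals (1.37) matches the most frequent ratio of RPKM values (1.3679, in 341 genes). Whole read numbers were sought for lengths of 100 to 11999 bases. Among 2019 genes for which fewer than 0.1 matches were expected by coincidence over all these lengths, 95.7% had one. Counted only up to the length used, the coincidental matches expected were 0.134 for hnf1ba, 0.0631 for sox32, 0.0043 for sox17 and less for mixl1 and sebox. Over all these lengths more are expected, so the 95.7% cannot be carried over to the factors. Intervals are exact Poisson for levels and exact binomial (Clopper-Pearson) for ratios, at 95%.

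The 5 genes and all lists were chosen with earlier results of these data known. Named from each list were up to 3 called genes at 5 RPKM or more with the largest RPKM ratio, and the gene not called with the highest level; for each factor the 3 nearest genes were named. List names were matched by symbol, by current symbol, by a known alias or by a RefSeq synonym, and acvr2bb and itgb1b had no match. A further list of relatives is not reported here. Alternatives were pseudocounts of 0.1, 1 and 5 RPKM, centring on the median gene, the deposited fold, a rate under 0.01, an absolute log2 fold of at least 1 and minimum levels of 1 and 5 RPKM.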

Additional observations from a re-analysis of the deposited data

How the results depend on the processing

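The 3 lower calls among the 5 factors held in the authors' deposited table under a rate under 0.01, an absolute log2 fold of at least 1, a minimum of 1 RPKM and centred conservative folds. These alternatives could only take calls away, so they do not bear on the 0 higher calls. With a minimum of 5 RPKM, which sebox does not reach, 2 lower calls were left. No ratio changed sign (0 of 5 factors) under any alternative run. A pseudocount cannot change a sign, and centring and the deposited fold both lowered the values. Only sox17 and hnf1ba could therefore have changed sign, and the signs of sox32, mixl1 and sebox were not put to a test. With a pseudocount of 5 RPKM the log2 ratios were −2.07 for sox32, 0.84 for sox17, −1.60 for mixl1, −0.51 for sebox and 0.74 for hnf1ba. With a pseudocount of 1 RPKM they were −2.64 for mixl1 and −1.56 for sebox. The deposited log2 fold was −3.11 for sox32, 0.83 for sox17, −3.85 for mixl1 and 0.33 for hnf1ba in the authors' deposited table. A pseudocount draws low levels towards 0 by construction. With a minimum of 5 RPKM, 1481 genes of the table were called higher and 3863 lower, and 1 list gene was called higher. The median log2 ratio of all list genes was −0.025 with a pseudocount of 1 RPKM. For counts of single lists that were above 0, 58 of 65 alternative values stayed within 1.5 times and 15 of 16 medians kept their sign. Centring could not remove a higher call, so its values for counts of higher calls were fixed in advance. No paired analysis was possible because the table holds 1 value per stage, and leaving out a library was not run for the same reason. Depth limits sebox most, with 13 reads at 10 hpf.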

Other observations

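Markers of other layers showed what else the whole embryos held at each stage. In the outer epithelium, the enveloping layer, the authors' deposited table had 4 of 7 genes called lower and 0 called higher. Their summed level was 4387 RPKM at 10 hpf and 2806 RPKM at 6 hpf, and krt4, the most abundant of them, was not called. The genes annotated as krt17 differed in direction. That with 16.0 RPKM at 10 hpf and 51.4 RPKM at 6 hpf was called lower. That with 493 RPKM at 10 hpf and 174 RPKM at 6 hpf was not called. The median log2 RPKM ratio of the 7 genes was −1.63. Of 4 genes of the prechordal plate and hatching gland, 3 were called higher and 0 lower, and their sum was 640 RPKM at 10 hpf and 44.2 RPKM at 6 hpf. Called higher were he1a and both genes annotated as ctslb. These ctslb genes, at 279 and 313 RPKM at 10 hpf, made up most of that sum. The remaining gene, gsc, was not called at 16.6 RPKM at 10 hpf and 18.2 RPKM at 6 hpf. Of 3 neural plate genes, 1 was called higher and 1 lower, with sums of 211 RPKM at 10 hpf and 197 RPKM at 6 hpf. The blood and vessel markers gata1a and tal1 stayed under 1 RPKM, with gata1a listed at 0 at 10 hpf and tal1 listed at 0 at 6 hpf. In the authors' deposited table gata1a, at 0.590 RPKM at 6 hpf, was called lower and tal1 was not called.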
